A study of Homo sapiens with 60 samples.

Results

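The collagen alpha chain genes were followed in SW1783 cells treated with water extracts of tonic herbs. The group held every protein-coding gene whose symbol consists of COL, a number, the letter A and a number, and 44 of the 60675 genes in the table met that rule. By structure, 11 of them encode fibrillar chains, 6 encode type IV chains of basement membranes, 10 encode fibril-associated chains with interrupted helices (FACIT chains), and 17 belong to other types. SW1783 is an established human astrocytoma line. Its cells were kept for 24 h with an extract at 20, 100 or 500 µg/mL (low, medium and high dose), or with 0.1% DMSO, the concentration the sample labels give for the vehicle; the series description gives another one and sets the doses of toxic extracts by their toxicity.

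The extracts came from Cinnamomi Cortex (Cinnamon), Astragali Radix (Astragalus), Cnidii Rhizoma (Cnidium), Rehmanniae Radix Preparata (Rehmannia), Angelicae Gigantis Radix (Angelica), Paeoniae Radix (Paeonia) and the formulas Sagunja-tang (Sagunja) and Samul-tang (Samul). Cinnamon, Astragalus, Cnidium, Rehmannia and Sagunja had 3 libraries at each dose, Samul had 2, and Angelica and Paeonia had 1. The vehicle had 3 libraries, which gave 60 libraries in 25 groups. The labels do not say that replicates were separate cultures, and the p-values therefore reflect how far these libraries scatter, which may be technical scatter only.

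Collagens are secreted or membrane-bound proteins whose alpha chains wind around each other into a rope-like helix. Fibrillar collagens build the load-bearing fibrils of connective tissue, type IV chains form the sheet-like network of basement membranes, and FACIT chains sit on the surface of fibrils and link them to their surroundings. The other types include the beaded filaments of type VI, the anchoring fibrils of type VII, the short-chain networks of type VIII and the membrane-spanning types XIII and XVII. In the brain, most collagen belongs to vessels and meninges, and glioma lines in culture often express collagen genes. No cause of a difference is tested here, and in bulk RNA fewer cells that express a gene and less RNA per cell cannot be told apart.

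Each library held between 20604792 and 29609799 expected counts. Of the 5 astrocyte markers listed, SLC1A3 was at 11.7 to 28.7 CPM (expected counts scaled to the same library size) in all 60 libraries, while GFAP, S100B, AQP4 and ALDH1L1 did not exceed 0.321 CPM in any. Among mesenchymal markers, VIM stood at 4661 to 6035 CPM and THY1 at 344 to 580 CPM, both genes that fibroblasts express. Of 4 epithelial markers, EPCAM, CDH1 and KRT19 stayed at or below 0.602 CPM and CLDN4 was at 1.55 to 3.28 CPM. Of 4 endothelial markers, VWF and CDH5 stayed at or below 0.266 CPM, PECAM1 was at 0.286 to 1.43 CPM and KDR at 14.4 to 36.5 CPM. Of 4 blood cell markers, CD3E and CD14 stayed at or below 0.78 CPM, PTPRC was at 3.99 to 12.6 CPM and CD68 at 89.4 to 229 CPM. The part of other cell types in the results was not tested. Sagunja low replicate 1 stood apart: its genes deviated from the other libraries of its group by a median of 0.602 on the log2 scale, against 0.0701 to 0.177 in libraries outside that group, and the deviation fell with exon length (Spearman's rho of -0.375 across genes, which are not independent). Its part in the results was not tested beyond leaving it out. Because all groups share 1 fit, this library also enters the standard errors of comparisons that do not include its group. Results are given with and without it for high and low Sagunja and for high Cinnamon against vehicle. For the other comparisons, the range of calls with single libraries left out is given in the closing section. The vehicle libraries also carry another code prefix than every extract library, so extract and code set cannot be told apart in a comparison with vehicle, whereas the high and low dose of an extract share a set.

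Fibrillar and type VI chains led the collagen transcripts of these cells. Per kilobase of exon, the highest vehicle levels were those of COL1A1, the major chain of type I collagen, with 421 ± 1.84 CPM per kb (SD, n = 3 here and for the vehicle levels that follow). COL6A1 and COL6A2 of the beaded filaments followed with 411 ± 11.1 and 257 ± 2.75 CPM per kb. COL5A1, which caps the width of type I fibrils, reached 207 ± 6.53 CPM per kb and COL1A2, the partner of COL1A1, 159 ± 1.64 CPM per kb. On this scale COL1A1 and COL6A1 did not differ beyond their spread, and the next 3 were separated from each other by more than theirs. The divisor is the length of all annotated exons of a gene merged, not of the transcript expressed. The spread does not cover that choice, and the order depends on it. Without the division, the vehicle means were 4133 CPM for COL1A1, 2321 for COL5A1, 2194 for COL6A1, 1773 for COL1A2 and 1384 for COL6A2.

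Below these came COL5A2 (48.9 ± 0.246 CPM per kb), COL4A2 (41.7 ± 1.02 CPM per kb), COL12A1, the leading FACIT chain (38.8 ± 1.04 CPM per kb), and COL4A1 (27.9 ± 0.633 CPM per kb). COL3A1, which accompanies type I collagen in many tissues, was far below it with 4.27 ± 0.405 CPM per kb. All 44 genes had a count in some library, but 13 did not pass the filter on low counts, the highest of them COL10A1 with at most 0.368 CPM. The 31 that passed were 9 fibrillar, 6 basement membrane, 5 FACIT and 11 other chains, and 5 of these (COL4A3, COL4A4, COL6A6, COL9A2 and COL11A2) averaged under 1 CPM in vehicle.

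The promoters of 4 groups of genes that the results below turn on are shown here. COL4A1 and COL4A2 are transcribed away from each other on chromosome 13, with 126 bases between their RefSeq starts, and this stretch serves both genes. The 250 bases before the start are shown for COL5A1 and COL13A1, which were lower at high Cinnamon and Sagunja doses. They are also shown for COL7A1, which stood below vehicle at the high Cinnamon dose and above it in the other extract groups tested. RefSeq windows on GRCh38.p14 were found for 32 of the 44 genes. Sequences run 5′ to 3′ on the strand named, and capitals mark matches to 3 promoter motifs, searched on both strands. The GC box was searched as GGGCGG, the CCAAT box by the letters in its name, and the TATA box in the common vertebrate form TATAAA.
COL4A1 and COL4A2, between their starts (chr13:110307158-110307283, plus strand): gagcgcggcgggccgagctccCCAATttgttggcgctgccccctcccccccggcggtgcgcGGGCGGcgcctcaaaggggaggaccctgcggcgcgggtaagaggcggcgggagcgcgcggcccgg
COL5A1 (chr9:134641553-134641802, plus strand): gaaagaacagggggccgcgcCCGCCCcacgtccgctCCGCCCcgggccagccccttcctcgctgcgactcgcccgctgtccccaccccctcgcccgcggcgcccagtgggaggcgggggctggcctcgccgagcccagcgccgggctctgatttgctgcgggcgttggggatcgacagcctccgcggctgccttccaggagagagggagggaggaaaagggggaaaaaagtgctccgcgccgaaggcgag
COL13A1 (chr10:69801656-69801905, plus strand): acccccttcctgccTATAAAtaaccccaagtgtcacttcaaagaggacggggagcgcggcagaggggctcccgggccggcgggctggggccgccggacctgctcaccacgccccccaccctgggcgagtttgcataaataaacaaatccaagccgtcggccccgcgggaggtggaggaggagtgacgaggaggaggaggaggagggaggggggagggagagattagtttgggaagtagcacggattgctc
COL7A1 (chr3:48595330-48595579, minus strand): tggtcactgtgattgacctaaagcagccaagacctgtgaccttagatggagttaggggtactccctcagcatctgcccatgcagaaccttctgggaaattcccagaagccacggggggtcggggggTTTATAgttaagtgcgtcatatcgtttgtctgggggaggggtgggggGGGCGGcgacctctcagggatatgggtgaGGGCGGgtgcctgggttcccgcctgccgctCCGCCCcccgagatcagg
The shared stretch of COL4A1 and COL4A2 held 1 match to the GC box letters and 1 to the CCAAT letters, and COL5A1 held 2 GC box matches. COL13A1 held 1 match to the TATA letters, and COL7A1 held 3 GC box matches and 1 TATA match. Matches were counted at any distance from the start. The COL13A1 TATA match lies near the far end of the window from the start, and that of COL7A1 reads on the opposite strand. Neither is therefore shown to be a working TATA box. Among 35116 promoter windows of 250 bases, 42.6% held a GC box match, 32.0% a CCAAT match and 10.7% a TATA match. Among windows of 126 bases these shares were 34.6%, 21.1% and 5.87%. An AP-1 site (TGANTCA) or a TEAD site (GGAATG) was found in none of the 4 windows, against 6.57% and 11.9% of the windows of 250 bases. The letters are described only and say nothing of which factor binds. In the GENCODE release 29 annotation the spans of COL4A1 and COL4A2 overlap at their 5′ ends on opposite strands (COL4A1 ends at 110307233 and COL4A2 begins at 110305812), and the sources used here do not state whether counting took strand into account.

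Changes below are log2 fold changes with their standard error, and a gene was called at an adjusted p under 0.05 by edgeR's quasi-likelihood test with Benjamini-Hochberg adjustment over 17516 genes. Levels are CPM scaled by TMM factors. The spread behind a standard error was estimated over the 54 libraries of the 19 groups with at least 2 libraries.

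At the high Cinnamon dose, fibrillar, basement membrane and other chains were lower than in vehicle. Of the 31 tested, 14 (45.2%) were lower than in vehicle and 0 higher, where 22.8% of all genes tested were called, 10.9% lower and 11.8% higher. The median log2 fold change of the 31 was -0.25, against 0.0 over all genes. By class, 5 of 9 fibrillar, 3 of 6 basement membrane, 1 of 5 FACIT and 5 of 11 other chains were called, the FACIT share being at the background. All collagen chains together fell to 1.15% ± 0.0702 of the CPM total at the high Cinnamon dose, against 1.48% ± 0.01 in vehicle (SD, n = 3 each). Without Sagunja low replicate 1 in the fit, 17 were called, 16 lower and 1 higher, while calls over all genes went up to 6265, against 3986 with it. The genes added were COL5A2 and the FACIT chain COL12A1, which were lower, and COL3A1, which was higher. Without Cinnamon high replicate 3, 9 were called, and 3090 over all genes.

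**Figure D1:**
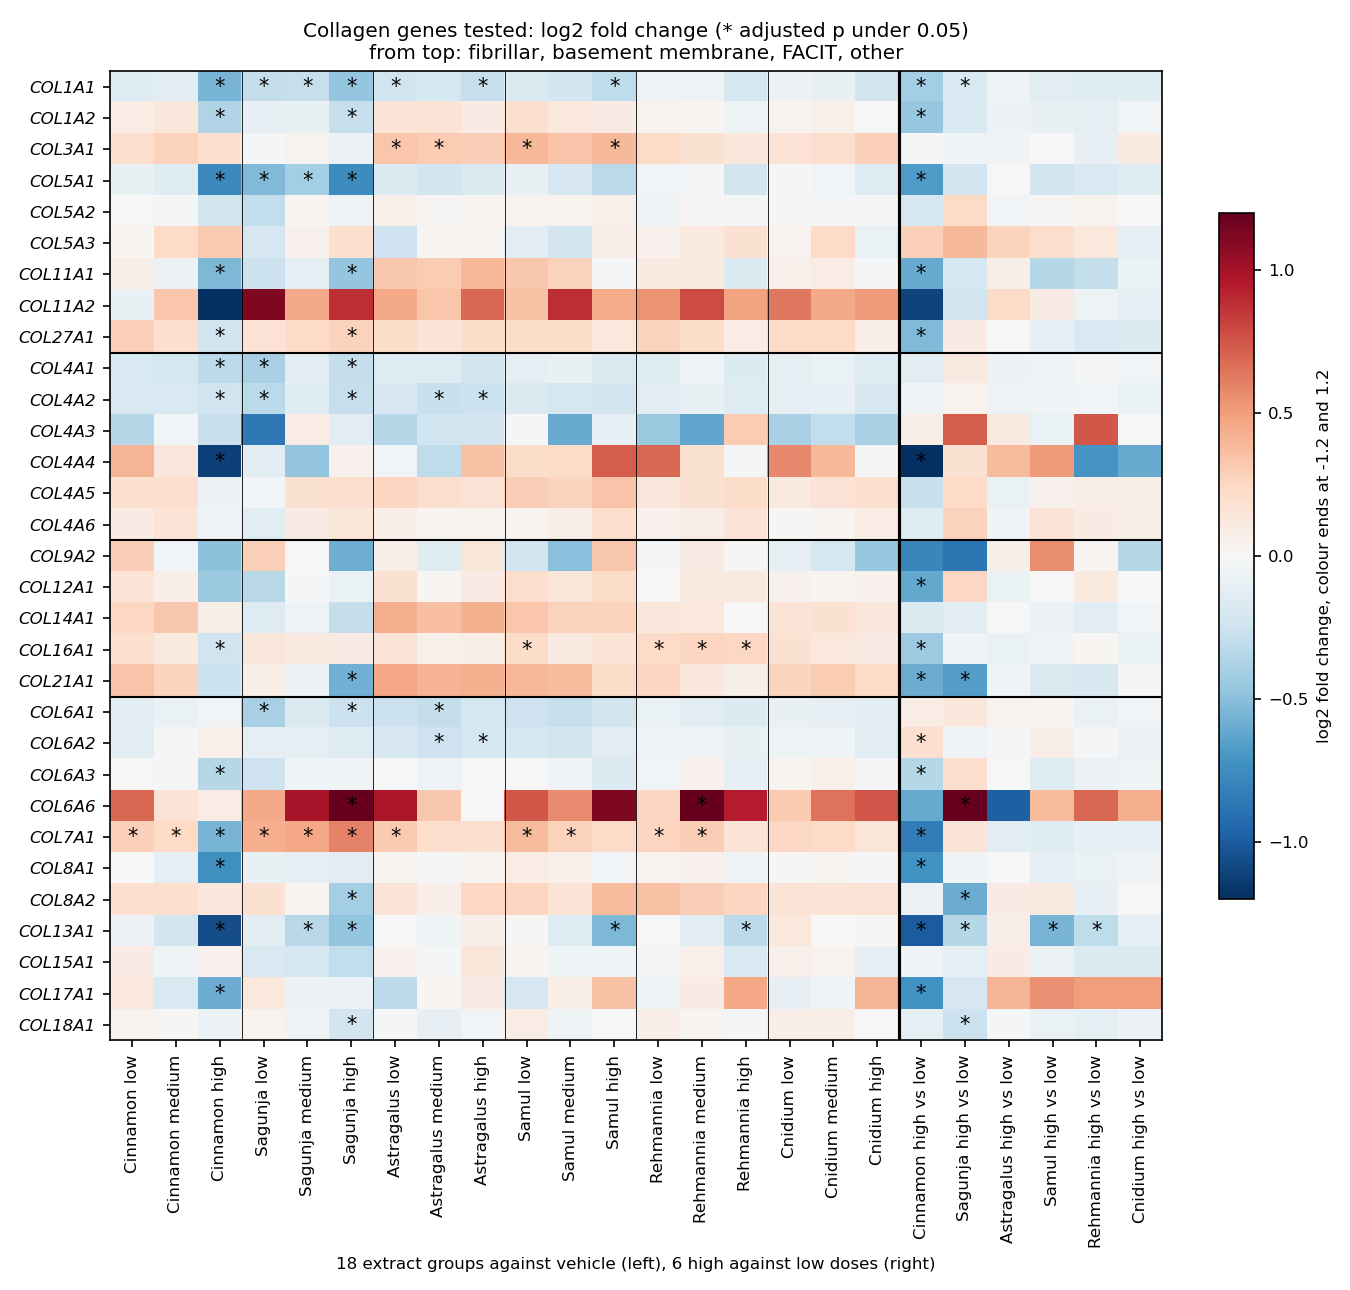
Log2 fold change of the 31 collagen genes tested (rows, by class) in 18 extract groups against vehicle (left of the thick line; low, medium and high dose of each extract) and in 6 comparisons of high with low dose (right of it). Red is higher and blue is lower in the group named first, stars mark adjusted p under 0.05, and the blue column of the high Cinnamon dose holds 14 of them.

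Type I collagen was lower through both chains. COL1A1 (chromosome 17, 50183289 to 50201632) had 3054, 2704 and 2568 CPM at the high Cinnamon dose and 4113, 4148 and 4137 CPM in vehicle. The groups did not overlap, and the change was -0.56 ± 0.067 (edgeR adjusted p = 1.56e-08). COL1A2 (chromosome 7, 94394561 to 94431232) had 1527, 1300 and 1280 CPM at that dose, against 1764, 1794 and 1761 CPM in vehicle, a change of -0.36 ± 0.0928 (edgeR adjusted p = 0.00366).

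COL5A1, the type V chain that helps type I fibrils to form, was lower as well. It had 1436, 1315 and 1284 CPM at the high Cinnamon dose, against 2304, 2258 and 2401 CPM in vehicle, and the change was -0.77 ± 0.124 (edgeR adjusted p = 5.9e-06). Its partner COL5A2 was at 315, 308 and 307 CPM, against 366, 362 and 366 CPM in vehicle, and was not called in the fit of all libraries. Without Sagunja low replicate 1 in the fit, COL5A2 was called, with -0.23 ± 0.0356 (edgeR adjusted p = 7.06e-07). COL11A1, a relative of type V that is best known from cartilage, had 11.5, 14.1 and 13.2 CPM, against 18.9, 18.7 and 19.3 CPM in vehicle (-0.54 ± 0.153, edgeR adjusted p = 0.00803). COL27A1 changed less, by -0.24 ± 0.0865 (edgeR adjusted p = 0.037), and that call ended with library size alone as the scaling.

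The largest change among genes above 1 CPM was that of COL13A1, a membrane-spanning collagen found at neuromuscular junctions. It was at 7.60, 7.31 and 7.14 CPM at the high Cinnamon dose, against 14.4, 15.9 and 16.2 CPM in vehicle, which is 0.479 of the vehicle level (-1.06 ± 0.0802, edgeR adjusted p = 6.99e-14). COL8A1, a short-chain collagen of vessel walls and of the membrane under the corneal endothelium, had 83.5, 80.3 and 82.5 CPM against 138, 137 and 139 CPM in vehicle (-0.73 ± 0.0484, edgeR adjusted p = 1.63e-15). Both were outside the vehicle range in all 3 libraries by far more than the replicates differed. COL8A2, the partner chain of COL8A1, was not called, with 5.75, 3.99 and 4.28 CPM at that dose and 4.30, 4.20 and 4.45 CPM in vehicle.

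COL7A1, which forms the anchoring fibrils below epithelia, had 133, 110.0 and 103 CPM at the high Cinnamon dose, against 168, 169 and 177 CPM in vehicle (-0.56 ± 0.0676, edgeR adjusted p = 2.31e-08). COL17A1, the membrane-spanning collagen of hemidesmosomes, was at 1.73, 1.72 and 1.64 CPM against 2.88, 2.63 and 2.29 CPM in vehicle (-0.60 ± 0.175, edgeR adjusted p = 0.0101). Neither gene's groups overlapped. COL6A3, the long chain of the type VI filaments, changed by -0.34 ± 0.101 (edgeR adjusted p = 0.0113) and the FACIT chain COL16A1 by -0.24 ± 0.0556 (edgeR adjusted p = 0.00119), while COL6A1 and COL6A2 were not called.

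Both chains of the common type IV collagen were lower too. COL4A1 had 349, 321 and 313 CPM at the high Cinnamon dose, against 404, 409 and 422 CPM in vehicle (-0.32 ± 0.101, edgeR adjusted p = 0.0195), and COL4A2 had 728, 669 and 628 CPM against 795, 793 and 828 CPM (-0.24 ± 0.070, edgeR adjusted p = 0.00982). The COL4A1 call ended with library size alone as the scaling. Both genes lay below every vehicle library in all 18 extract groups, so a level under vehicle is not particular to this dose. Between the Cinnamon doses neither was called. Without Sagunja low replicate 1, COL4A1 was called there (-0.13 ± 0.038, edgeR adjusted p = 0.00564) and COL4A2 was not. COL4A4, one of the type IV chains of the kidney filter, was at 0.188, 0.336 and 0.252 CPM, against 0.538, 0.606 and 0.571 CPM in vehicle (-1.12 ± 0.406, edgeR adjusted p = 0.04), a level near the filter where a DESeq2 fit did not call it.

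**Figure D2:**
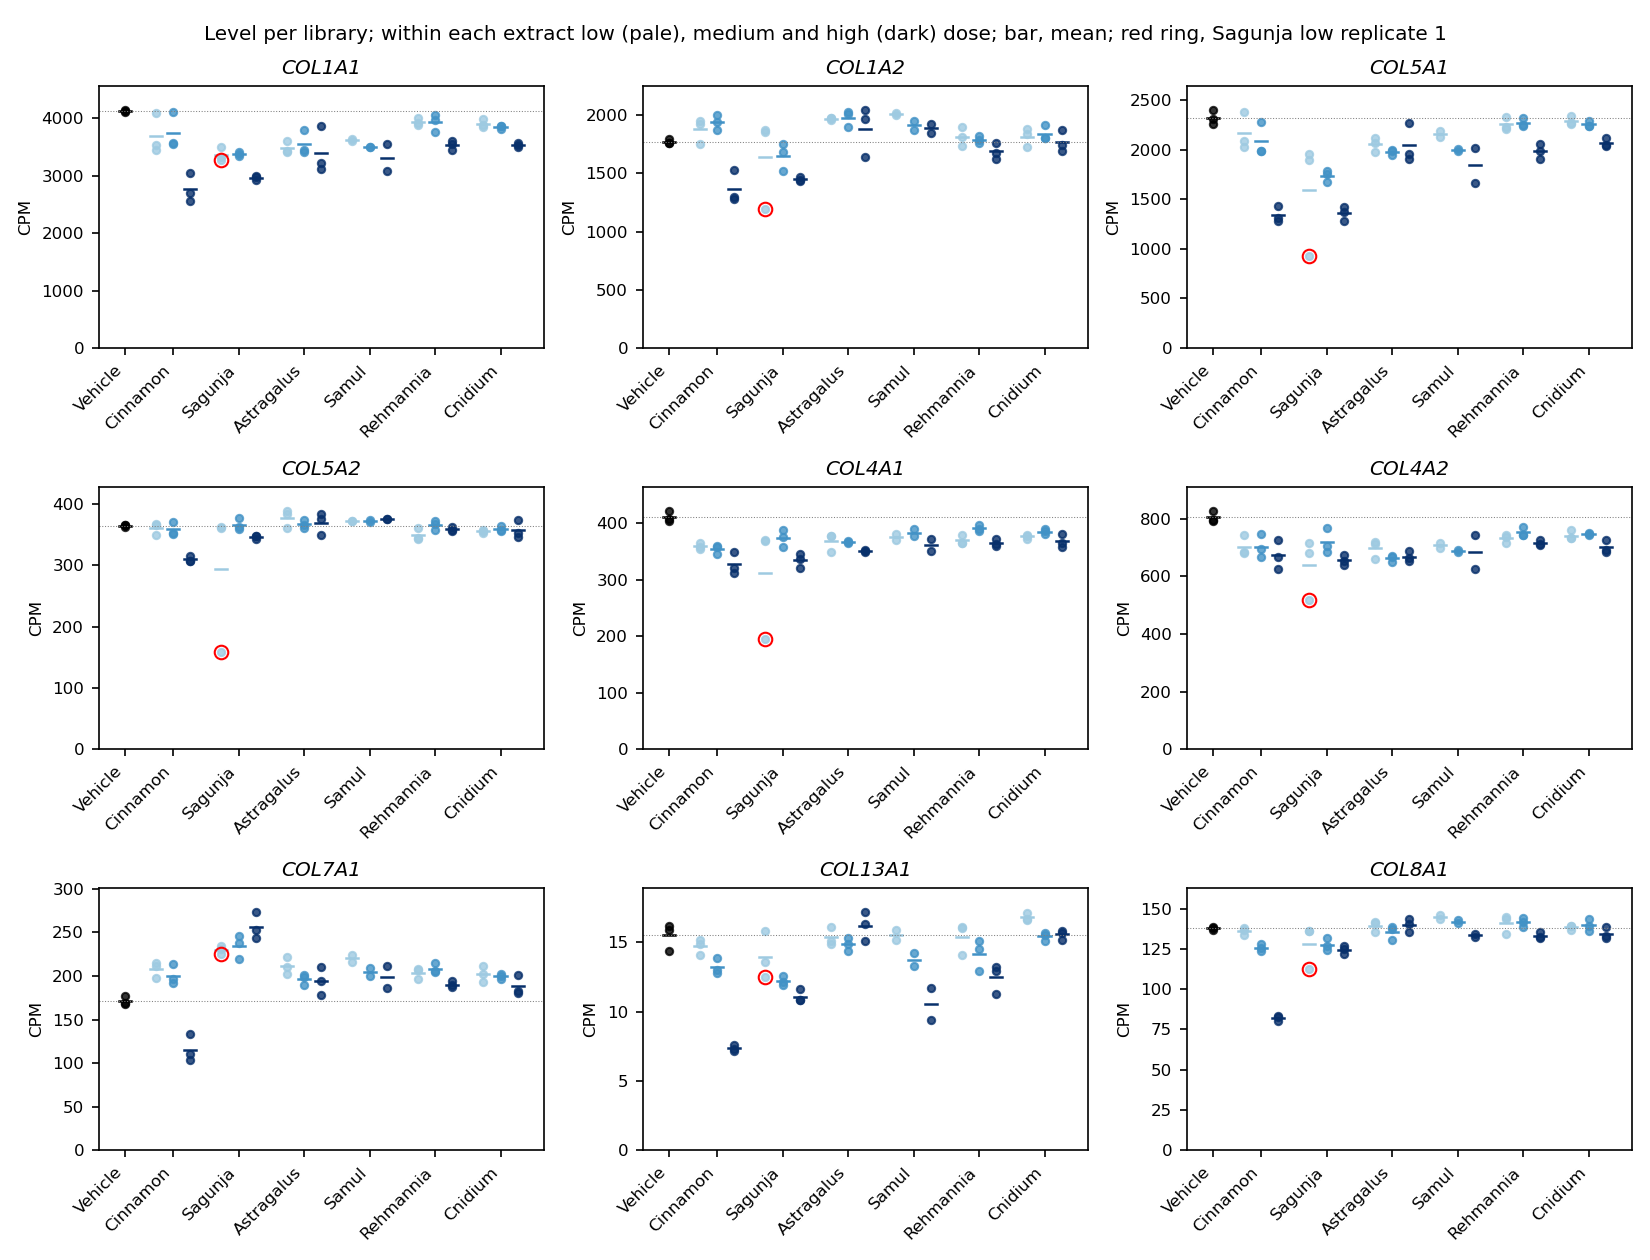
Level of 9 collagen genes in each library (CPM, axis from 0) for vehicle and for the low, medium and high dose of 6 extracts (pale to dark); points are libraries, short bars are group means, the dotted line is the vehicle mean and the red ring marks Sagunja low replicate 1. The high Cinnamon dose stands below vehicle in COL1A1, COL5A1, COL8A1 and COL13A1, and COL7A1 stands below vehicle there and above it at the high Sagunja dose.

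Collagen genes were also lower when the high Cinnamon dose was compared with the low dose of the same code set, a comparison that shares its high-dose libraries with the one above but uses no vehicle library. Of the 31, 15 were called, 14 lower and 1 higher, where 21.6% of all genes tested were called (11.2% lower and 10.3% higher), and the median was -0.41. COL5A1 was at 1436, 1315 and 1284 CPM at the high dose, against 2377, 2030 and 2084 CPM at the low dose (-0.68 ± 0.124, edgeR adjusted p = 4.8e-05). COL7A1 was lower by -0.84 ± 0.0677 on the log2 scale (edgeR adjusted p = 4.86e-13), with 198, 214 and 211 CPM at the low dose. The high-dose libraries lay below every low-dose library for both genes.

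Among FACIT chains, 3 of 5 were lower between the Cinnamon doses. COL12A1, which bridges type I fibrils in tendon and muscle, had 327, 369 and 360.2 CPM at the high Cinnamon dose, against 509, 565 and 546 CPM at the low dose (-0.61 ± 0.217, edgeR adjusted p = 0.0386). COL21A1 changed by -0.60 ± 0.149 (edgeR adjusted p = 0.00276) and COL16A1 by -0.43 ± 0.0554 (edgeR adjusted p = 7.79e-08). The one collagen gene that rose was COL6A2, with 1511, 1451 and 1328 CPM at the high dose, against 1324, 1220 and 1229 CPM at the low dose (0.19 ± 0.0599, edgeR adjusted p = 0.0184). The medium dose of Cinnamon was close to the low one: against vehicle, 1 of 31 was called at the low and 1 at the medium dose (1.06% and 2.29% of all genes), and that gene was COL7A1, higher by 0.29 ± 0.0671 at the low dose and 0.24 ± 0.0671 at the medium dose (edgeR adjusted p = 0.0166 and 0.0465).

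Whether Cinnamon's dose effect differed from that of Astragalus, which shares its code set, was tested as a difference of differences. The effect of Cinnamon was lower for 11 of 31 collagen genes and higher for 0, where 14.4% of all genes tested were called, 7.67% lower and 6.73% higher. The difference was -1.07 ± 0.1101 for COL13A1 (edgeR adjusted p = 9.66e-10), -0.72 ± 0.068 for COL8A1 (edgeR adjusted p = 9.17e-11) and -0.72 ± 0.0951 for COL7A1 (edgeR adjusted p = 3.03e-07). It was -0.67 ± 0.174 for COL5A1 (edgeR adjusted p = 0.00592) and -0.37 ± 0.0945 for COL1A1 (edgeR adjusted p = 0.00539). Within Astragalus itself, edgeR called 0 of 31 between high and low dose (0.28% of all genes), and a DESeq2 fit called 0. An unadjusted p under 0.05 was found for 2 (COL6A6 and COL17A1), and for 1152 of all 17516 genes tested. Astragalus high replicate 1 had the largest median deviation from its group outside the low Sagunja group (0.177). With single libraries left out, the difference between the 2 extracts was called for 9 to 16 of 31.

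COL17A1 differed most between these 2 extracts among the genes above 1 CPM, by -1.13 ± 0.242 (edgeR adjusted p = 0.000807). It had 1.73, 1.72 and 1.64 CPM at the high Cinnamon dose and 2.85, 2.67 and 2.92 CPM at the low one. With Astragalus it had 2.99, 2.23 and 3.07 CPM at the high dose and 2.16, 2.21 and 1.87 CPM at the low dose, a change of 0.41 ± 0.168 that was not called (edgeR adjusted p = 0.596).

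**Figure D3:**
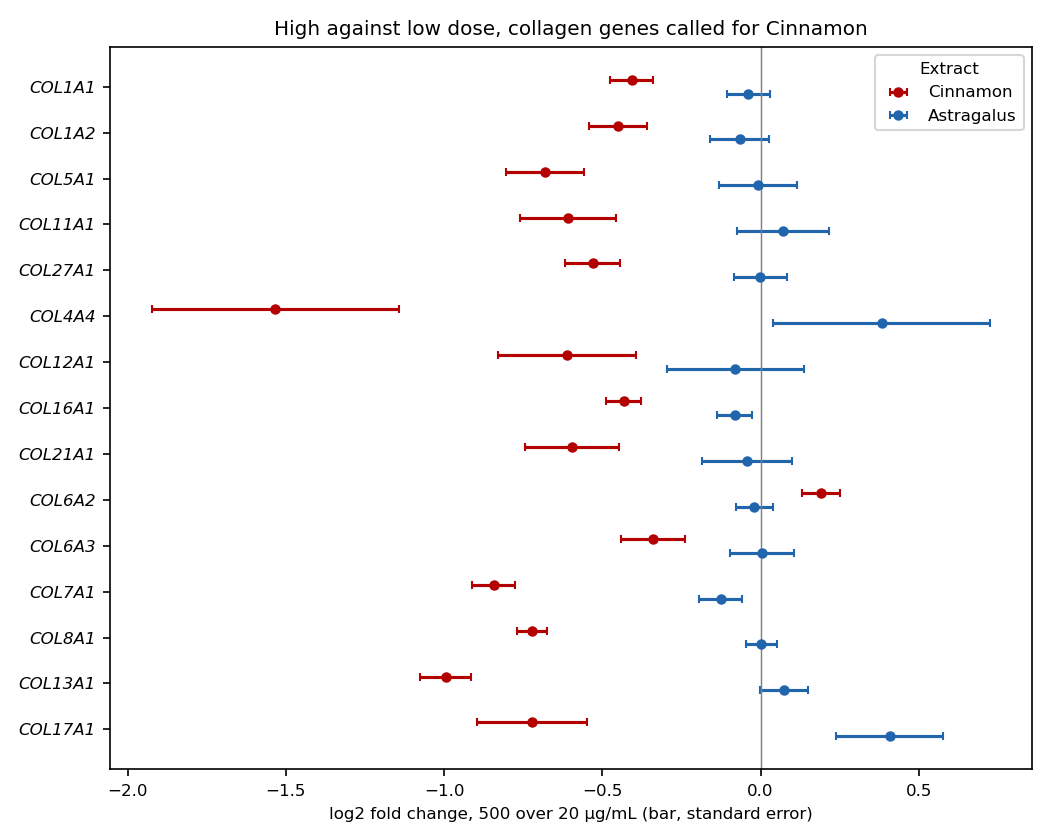
Log2 fold change of the high over the low dose (x axis, bars are standard errors) for the 15 collagen genes called between the Cinnamon doses, with Cinnamon in red and Astragalus in blue. Cinnamon runs from -1.53 for COL4A4 to 0.19 for COL6A2, and the Astragalus points stand near 0 except for COL4A4 and COL17A1.

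At the high dose of the formula Sagunja, 4 of 9 fibrillar chains were lower than in vehicle and COL7A1 was higher. Of the 31, 14 were called, 11 lower and 3 higher, where 17.1% of all genes tested were called, 8.11% lower and 8.94% higher, and the median was -0.14. The 5 fibrillar chains called were COL1A1, COL1A2, COL5A1 and COL11A1, which were lower, and COL27A1, which was higher. COL27A1 lay above every vehicle library in 15 of 18 extract groups, so its higher level is not particular to this dose. All collagen chains together made up 1.16% ± 0.0265 of the CPM total at that dose, against 1.48% ± 0.01 in vehicle. Without Sagunja low replicate 1 in the fit, 20 were called, 15 lower and 5 higher, while calls over all genes went up to 5400, against 2987 with it. Leaving out single libraries of the 2 groups compared gave 8 to 10, with 2024 to 2300 calls over all genes.

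COL5A1 had 1371, 1285 and 1419 CPM at the high Sagunja dose, against 2304, 2258 and 2401 CPM in vehicle (-0.76 ± 0.124, edgeR adjusted p = 1.61e-05). COL1A1 had 2994, 2926 and 2979 CPM, against 4113, 4148 and 4137 CPM in vehicle (-0.46 ± 0.0669, edgeR adjusted p = 1.81e-06). COL1A2 had 1437, 1465 and 1440 CPM (-0.28 ± 0.0928, edgeR adjusted p = 0.0331), against 1764, 1794 and 1761 CPM in vehicle. All 3 genes lay below the vehicle range in every library, and the call on COL1A2 ended with library size alone as the scaling.

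COL7A1 had 243, 252 and 274 CPM at the high Sagunja dose, against 168, 169 and 177 CPM in vehicle, 1.51 times the vehicle level (0.60 ± 0.0672, edgeR adjusted p = 7.13e-09). With Cinnamon it was lower at the same concentration, so that the libraries of the high Cinnamon dose lay below, and those of the high Sagunja dose above, all 3 vehicle libraries. COL13A1 had 10.8, 10.8 and 11.6 CPM, against 14.4, 15.9 and 16.2 CPM in vehicle (-0.47 ± 0.0774, edgeR adjusted p = 1.78e-05). The FACIT chain COL21A1 had 5.40, 4.77 and 5.43 CPM, against 7.61, 8.08 and 7.88 CPM in vehicle (-0.58 ± 0.156, edgeR adjusted p = 0.00728).

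COL6A6, an additional type VI chain at the low end of the range, was at 1.14, 0.894 and 1.12 CPM with high Sagunja, against 0.231, 0.323 and 0.449 CPM in vehicle (1.66 ± 0.325, edgeR adjusted p = 0.000238). Its change was above 0 in 17 of 18 comparisons with vehicle and was also called with medium Rehmannia, so a higher level is not particular to Sagunja. Between the Sagunja doses COL6A6 was called with all libraries, and not without low replicate 1 (edgeR adjusted p = 0.0745). COL8A2 was lower by -0.40 ± 0.133 on the log2 scale (edgeR adjusted p = 0.0305) and COL18A1, the source of endostatin, by -0.22 ± 0.0548 (edgeR adjusted p = 0.004). COL4A1 changed by -0.28 ± 0.101 (edgeR adjusted p = 0.0471) and COL4A2 by -0.28 ± 0.0701 (edgeR adjusted p = 0.00389). These 2 changes did not differ beyond their errors, and the part of the shared promoter stretch was not tested.

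The Sagunja dose comparison depends on low replicate 1. With all libraries, 6 of 31 were called between high and low dose (5 lower and 1 higher, where 20.5% of all genes were called, 12.5% lower and 7.93% higher); without that library 11 were called, all lower, and 4 genes were in both sets. Over all genes, 1133 were called without it (609 of them higher), against 3586 with it (1389 of them higher). COL5A1 shows the difference: it had 1371, 1285 and 1419 CPM at the high dose, 926 CPM in low replicate 1 and 1954 and 1897 CPM in the other low-dose libraries. Its change was -0.23 ± 0.123 with all libraries (edgeR adjusted p = 0.172) and -0.50 ± 0.0638 without that library (edgeR adjusted p = 6.3e-08). COL1A2 changed by -0.36 ± 0.0645 without it (edgeR adjusted p = 6.72e-05) and by -0.18 ± 0.0927 with all libraries (edgeR adjusted p = 0.156). COL4A1 differed in sign, with -0.14 without it (edgeR adjusted p = 0.0356) and 0.10 with it (edgeR adjusted p = 0.475). COL13A1 was called either way, with -0.34 ± 0.0784 (edgeR adjusted p = 0.00267) and -0.41 ± 0.0821 without it (edgeR adjusted p = 0.000375). COL7A1 was not called either way, with 0.16 ± 0.0669 when all libraries were used (edgeR adjusted p = 0.0822).

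At the low Sagunja dose, 6 of 31 were called against vehicle (22.1% of all genes tested), and 0 were called when the fit held only the 2 groups. Without replicate 1, 8 were called (1997 genes in all). COL7A1 was higher by 0.44 ± 0.0672 with all libraries (edgeR adjusted p = 3.95e-05) and by 0.44 ± 0.0683 without that one (edgeR adjusted p = 3.09e-05). At the medium dose 4 of 31 were called (6.32% of all genes), COL1A1, COL5A1 and COL13A1 lower and COL7A1 higher. COL5A1 had 1757, 1675 and 1781 CPM at the medium dose, between low replicates 2 and 3 and the high dose.

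COL13A1 was the collagen gene called between the high and low dose of Samul and of Rehmannia. With Samul it had 9.41 and 11.7 CPM at the high dose, against 15.2 and 15.9 CPM at the low dose (-0.56 ± 0.0946, n = 2 each, edgeR adjusted p = 0.000378), and was 1 of 31 called where 0.736% of all genes were. With Rehmannia it had 13.2, 11.3 and 12.9 CPM at the high dose, against 16.0, 14.1 and 16.1 CPM at the low dose (-0.31 ± 0.0766, edgeR adjusted p = 0.0351), again 1 of 31 where 0.805% of all genes were called. The Samul call was lost without Samul high replicate 1, and the Rehmannia call was lost under library size alone and without any of 4 single libraries. Between high and low Cnidium doses edgeR called 0 of 31, where 0.228% of all genes were called, and a DESeq2 fit called 0. An unadjusted p under 0.05 was found there for 2 (COL1A1 and COL17A1), and for 946 of all 17516 genes tested.

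The dose effects of extracts within a code set were also compared here. Between Sagunja and Samul the difference was called for 1 of 31 genes, COL8A2 (-0.71 ± 0.201, edgeR adjusted p = 0.0438), where 2.89% of all genes were called. Without Sagunja low replicate 1 the gene called was COL21A1 (-0.74 ± 0.183, edgeR adjusted p = 0.012; with all libraries -0.48 ± 0.236 and 0.227), and COL8A2 was not (edgeR adjusted p = 0.0604). Between Rehmannia and Cnidium the difference was called for 0 (0.04% of all genes), and for 0 by DESeq2. An unadjusted p under 0.05 was found for 0 of the 31, and for 492 of all 17516 genes tested. The dose effect on COL13A1 differed between Sagunja and Samul by 0.22 ± 0.123, which was not called (edgeR adjusted p = 0.295).

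Against vehicle, few collagen genes were called with these extracts in the fit of all groups, but the counts depend on the fit. Leaving out 1 library gave 1 to 14 with high Samul, 1 to 7 with high Rehmannia and 0 to 5 with high Cnidium. Fits of only the compared groups gave larger counts for all 3 extracts, and calls over all genes moved with them (see the closing section). With Samul, 3 of 31 were called at the low dose (2.62% of all genes), 1 at the medium dose (1.75%) and 3 at the high dose (4.13%). COL13A1 was lower at the high dose (-0.54 ± 0.0869, edgeR adjusted p = 6e-05), as was COL1A1 (-0.30 ± 0.0752, edgeR adjusted p = 0.0123). With Rehmannia, 2 were called at the low dose (0.993% of all genes), 3 at the medium dose (0.714%) and 2 at the high dose (2.37%). The FACIT chain COL16A1 was higher at each dose, with 56.1, 52.7 and 55.1 CPM at the high dose, against 45.7, 45.6 and 47.3 CPM in vehicle (0.25 ± 0.0551, edgeR adjusted p = 0.00525). COL16A1 was also called higher with low Samul and lay above every vehicle library in 14 of 18 extract groups, so this is not particular to Rehmannia. With Cnidium, edgeR called 0 of 31 at the low, medium and high dose (0.383%, 0.297% and 1.35% of all genes). A DESeq2 fit called 1, 0 and 1 of them, and 3, 5 and 7 had an unadjusted p under 0.05. Of all 17516 genes tested, 1119, 1070 and 1877 did so at these doses.

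With Astragalus, 3 of 31 were called at the low dose (3.67% of all genes), 4 at the medium dose (3.94%) and 3 at the high dose (4.45%). These counts depend on the fit as well: leaving out 1 library gave 1 to 14, 0 to 12 and 0 to 12. COL4A2 and COL6A2 were lower at the high dose, by -0.26 ± 0.0701 and -0.21 ± 0.060 on the log2 scale (edgeR adjusted p = 0.0215 and 0.0277), and COL1A1 by -0.27 ± 0.0668 (edgeR adjusted p = 0.00987). COL3A1 was higher at the low dose, with 35.4, 38.4 and 35.3 CPM against 26.0, 30.1 and 31.2 CPM in vehicle (0.33 ± 0.090, edgeR adjusted p = 0.0255). It was also called with medium Astragalus and with the high and low doses of Samul, with changes of 0.31 ± 0.0902, 0.39 ± 0.0995 and 0.39 ± 0.100 (edgeR adjusted p = 0.0425, 0.0155 and 0.0227).

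COL7A1 was the collagen gene most often called higher than vehicle. It was called higher with all doses of Sagunja, with medium and low Cinnamon, Samul and Rehmannia and with low Astragalus, with changes of 0.24 to 0.60, and it was lower in the high Cinnamon group alone. In the groups where it was not called it averaged above the vehicle as well, for example 201, 180.4 and 182 CPM with high Cnidium. All 18 comparisons share the same 3 vehicle libraries, whose code prefix differs, so these calls are not independent of each other and cannot be told apart from a difference between code sets. COL1A1 and COL4A2 show the same limit in the other direction: their changes ran from -0.56 to -0.06 and from -0.32 to -0.09 over the 18 comparisons, and 7 and 5 of these were called. The limit also holds for COL4A1, with changes from -0.39 to -0.07, and for COL16A1, with a median change of 0.13. It holds as well for COL6A6 and COL27A1, whose median changes were 0.67 and 0.22.

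Partner chains of a collagen were compared within each library. The CPM ratio of COL5A1 to COL5A2 within a library was 4.34 ± 0.193 at the high and 6.01 ± 0.704 at the low Cinnamon dose. It was 3.92 ± 0.200 at the high Sagunja dose and 5.50 ± 0.316 at the low one, where low replicate 1 had 5.86 and the others 5.38 and 5.26; in vehicle it was 6.37 ± 0.177. The 3 libraries of each high dose stood below every low-dose library of the same extract. The ratio of COL1A1 to COL1A2 was 2.03 ± 0.0451 with high Cinnamon and 2.05 ± 0.0461 with high Sagunja, against 2.33 ± 0.0185 in vehicle. It reached 2.33 in Cinnamon low replicate 1 and 2.75 in Sagunja low replicate 1. The other low-dose libraries stood below the high-dose ones, at 1.79 and 1.82 with Cinnamon and 1.88 and 1.78 with Sagunja. Every extract group had a mean below vehicle, for example 1.77 with low Astragalus, so the lower ratio is not particular to these high doses.

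COL4A1 to COL4A2, the pair with the shared promoter stretch, had a ratio of 0.485 ± 0.011 with high Cinnamon and 0.510 ± 0.0181 with high Sagunja, against 0.511 ± 0.00361 in vehicle. The high Cinnamon libraries, with 0.479, 0.479 and 0.498, all lay below the vehicle range of 0.508 to 0.515. Over the 24 extract groups the mean ratio of COL4A1 to COL4A2 ran from 0.478 in the low Sagunja group to 0.556 with medium Samul. In the low Sagunja group replicate 1 had 0.378 and the others 0.518 and 0.539. COL6A1 to COL6A2 stood at 1.48 ± 0.0567 with high Cinnamon and 1.48 ± 0.029 with high Sagunja, against 1.58 ± 0.0364 in vehicle. With 3 libraries a group an exact permutation test of such a ratio cannot give a two-sided p below 0.1, so the ratios are described only.

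**Figure D4:**
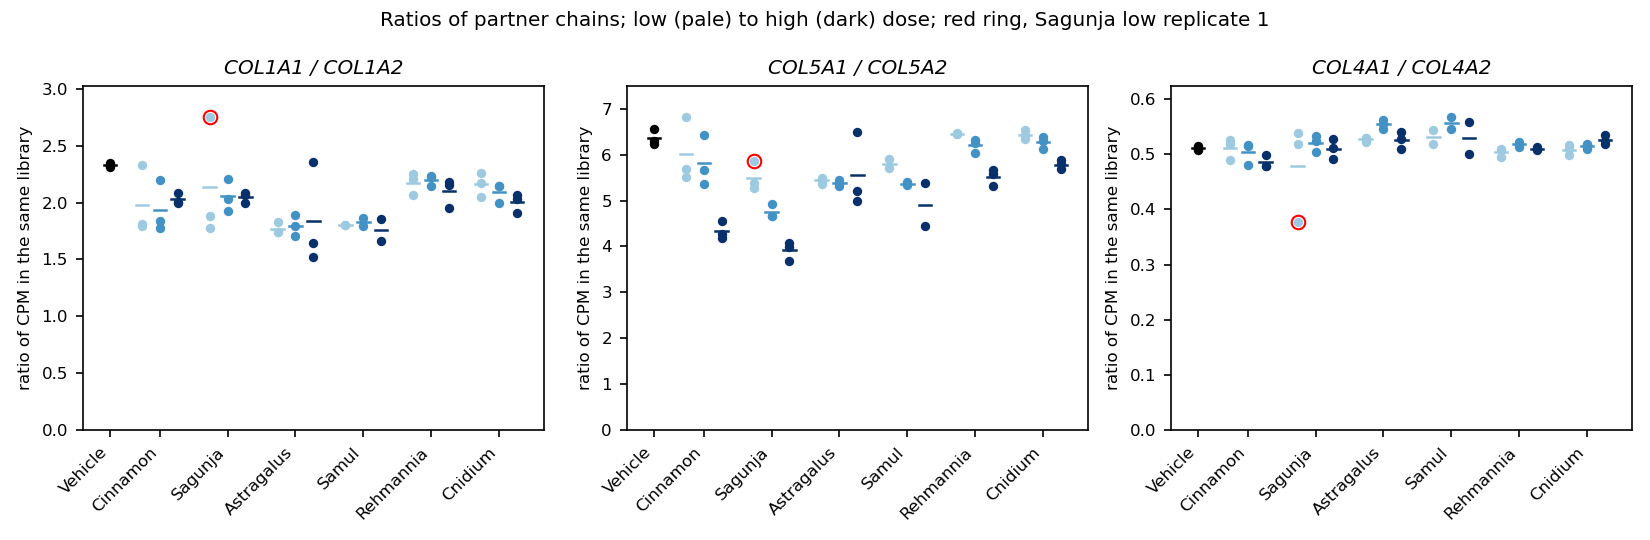
CPM ratio of partner chains in the same library (y axis from 0) for vehicle and for the low, medium and high dose of 6 extracts (pale to dark); points are libraries, bars are means and the red ring marks Sagunja low replicate 1. COL5A1 to COL5A2 is lowest at the high Sagunja and Cinnamon doses, while COL4A1 to COL4A2 stays between 0.478 and 0.556 in the group means.

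Genes of collagen processing were called in both directions at these doses. Of 34 listed processing genes, 13 were called at the high Cinnamon dose against vehicle (10 lower and 3 higher), with a median of -0.07, beside the 22.8% of all genes called there (10.9% lower and 11.8% higher). ADAMTS3, ADAMTS14 and TLL1, proteases that trim procollagen, were lower by -0.88 ± 0.221, -0.51 ± 0.0873 and -0.50 ± 0.143 on the log2 scale (edgeR adjusted p = 0.00266, 1.77e-05 and 0.00869), and the crosslinking oxidase LOXL4 by -0.52 ± 0.152 (edgeR adjusted p = 0.0105). TMEM38B, an ion channel of the endoplasmic reticulum needed for type I collagen assembly, was higher, with 66.5 ± 3.04 CPM against 47.9 ± 2.38 CPM in vehicle (0.49 ± 0.0636, edgeR adjusted p = 1.05e-07). The prolyl hydroxylase subunit P4HA2 also rose more between the doses of Cinnamon than between those of Astragalus, by 0.57 ± 0.0836 on the log2 scale (edgeR adjusted p = 2.1e-06).

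At the high Sagunja dose, 16 of the 34 processing genes were called (11 lower and 5 higher), with a median of -0.1, beside 17.1% of all genes (8.11% lower and 8.94% higher). PCOLCE, which speeds the trimming of type I procollagen, had 116 ± 2.66 CPM at that dose and 162 ± 2.21 CPM in vehicle (-0.46 ± 0.0857, edgeR adjusted p = 0.000128). Of the 8 collagen receptors, 3 were lower, among them ITGA11, a fibrillar collagen integrin (-0.51 ± 0.0935, edgeR adjusted p = 0.000111), and DDR1, a receptor kinase (-0.48 ± 0.0547, edgeR adjusted p = 8.08e-09). With high Cinnamon 1 of the 8 was called. The shares over all genes at these doses were 17.1% with Sagunja and 22.8% with Cinnamon.

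Of 20 listed partners in basement membranes and fibrils, 19 were tested, and 4 were called with high Cinnamon (2 higher and 2 lower) and 5 with high Sagunja (2 higher and 3 lower). Over all genes, 22.8% and 17.1% were called at these doses, so the Cinnamon count is near the background and is not a result about the partners. The laminin chain LAMB3 was higher with both, at 8.82 ± 1.17 CPM with Cinnamon and 9.13 ± 1.36 CPM with Sagunja, against 6.18 ± 0.314 CPM in vehicle (edgeR adjusted p = 0.000436 and 0.000228). LAMA5, a laminin chain of vessel and epithelial basement membranes, was lower by -0.62 ± 0.0815 between the high and low Cinnamon doses (edgeR adjusted p = 1.31e-07). The fibril-binding proteoglycan BGN was lower with high Sagunja (-0.54 ± 0.113, edgeR adjusted p = 0.000478). At the high doses of Astragalus, Samul, Rehmannia and Cnidium, edgeR called 1, 3, 2 and 0 of the 34 processing genes against vehicle. Over all genes, 4.45%, 4.13%, 2.37% and 1.35% were called there. At the same doses edgeR called 0 of the 19 partners and 0 of the 8 receptors against vehicle. An unadjusted p under 0.05 was found for 1, 7, 3 and 2 of the partners and for 1, 1, 0 and 0 of the receptors. Of all 17516 genes tested, 2740, 2929, 2225 and 1877 had an unadjusted p under 0.05 at these doses.

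Angelica and Paeonia had 1 library a dose, so their collagen levels are given without a test. None of the 31 genes differed over 2-fold from the vehicle mean, on the log2(CPM + 1) scale, in any of the 6 libraries, where 0.0856%, 0.108% and 0.194% of all genes did with low, medium and high Paeonia and 0.137%, 0.154% and 0.103% with low, medium and high Angelica. That offset of 1 CPM shrinks ratios of low genes: with an offset of 0.1 CPM, 1 of 31 passed, COL6A6 in low Paeonia (0.776 CPM against a vehicle mean of 0.334 CPM), where 1.58% of all genes did. COL13A1 was at 14.4, 15.9 and 16.2 CPM in the vehicle libraries, at 15.4, 12.3 and 10.1 CPM with the low, medium and high dose of Paeonia, and at 16.4, 14.8 and 13.7 CPM with those of Angelica. COL5A1 was at 2258 to 2401 CPM in vehicle and at 2246, 2396 and 1780 CPM with low, medium and high Paeonia. COL1A1, at 3314 to 3971 CPM, lay below every vehicle library in each of these 6 libraries, as did COL4A1, COL4A2, COL6A1 and COL6A2. Taken 1 library at a time, 33.6%, 33.6% and 35.9% of all genes lay below every vehicle library with low, medium and high Paeonia. The shares were 33%, 33.2% and 35% with low, medium and high Angelica. The share of genes below vehicle in all 6 libraries was not computed.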

How the data were processed

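RNA of SW1783 cells was sequenced from directional mRNA libraries as paired reads, per the labels' protocols. The authors deposited expected counts per Ensembl gene. The submitters' processing notes name RSEM 1.3.3, STAR 2.7.3a, Trim Galore 0.6.5 and FastQC 0.11.9 and the builds hg38 and GRCh38, with no roles. The annotation release is not stated in the sources used here. Of the deposited values, 90.67% were whole. Expected counts were rounded to whole numbers, symbols were matched for 56558 genes and GENCODE 29 positions for 57055; 219 of 279 columns were not used.

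Counts were analysed in R 4.3.3 with edgeR 4.0.16 (limma 3.58.1): filterByExpr over groups, TMM scaling (factors 0.936 to 1.03), glmQLFit with the robust option and glmQLFTest, on 54 libraries, 19 groups and 17516 genes with 35 residual degrees of freedom. The biological coefficient of variation was 0.0946. In 27 comparisons p-values were two-sided and adjusted by Benjamini-Hochberg, with a threshold of 0.05. Standard errors were derived from the F statistic. CPM were computed on TMM-scaled library sizes, and CPM per kb divides by the length of a gene's merged annotated exons. Totals of 20604792 to 29609799 limit the precision of genes near 1 CPM. Replicates differed by more than sampling noise, so none was counted as a copy.

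Alternatives were DESeq2 1.42.0, its size factors, library size alone, robust dispersions, no filter, fits of the compared groups only, a replicate block and leaving out single libraries. The model was tested on simulated data. Python 3.11.15 with pandas 2.3.3, numpy 2.4.6 and matplotlib 3.10.9 made tables and figures. Values in every library were given for up to 12 genes by the largest change called at a high dose and for COL1A1, COL1A2, COL3A1, COL4A1 and COL4A2, and up to 6 called genes per comparison were named from the other lists; further genes were chosen after their values were seen. The members and lists were chosen with earlier results of these data known. Same-numbered replicates were checked for pairing: their deviations correlated by -0.148 to 0.144, and in no comparison did all pairs exceed 0.1.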

Additional observations from a re-analysis of the deposited data

Results flagged for a closer look

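The effect of dose differed between Cinnamon and Astragalus for 11 collagen genes by edgeR's test of the difference itself, adjusted over all 17516 genes. The difference, Cinnamon minus Astragalus in log2 units, was -1.92 for COL4A4, -1.13 for COL17A1, -1.07 for COL13A1, -0.72 for COL7A1, -0.72 for COL8A1, -0.68 for COL11A1, -0.67 for COL5A1, -0.53 for COL27A1, -0.38 for COL1A2, -0.37 for COL1A1 and -0.35 for COL16A1. COL4A4 lies under 1 CPM in all of these groups.

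COL8A2, the lesser chain of type VIII collagen, differed between the formulas Sagunja and Samul by -0.71 (edgeR adjusted p = 0.0438). It had 3.25, 3.15 and 3.28 CPM at the high and 4.99, 4.66 and 4.97 CPM at the low Sagunja dose, and 5.44 and 5.66 CPM at the high and 5.15 and 5.11 CPM at the low Samul dose. That call was lost with library size alone, with no filter, with a fit of the compared groups only, and when single libraries were left out, among them Sagunja low replicate 1 (edgeR adjusted p = 0.0604).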

How the results depend on the processing

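The counts below are of collagen genes called among 31, with the count given in the results in parentheses. DESeq2's Wald test called 2 with low Cinnamon (1), 7 with low Astragalus (3), 5 with high Samul (3), 5 with medium Samul (1), 1 with high Cnidium (0) and 1 with low Cnidium (0). DESeq2's size factors gave 0 with medium Cinnamon (1), 0 with medium Samul (1) and 1 with low Rehmannia (2). Library size alone gave 2 with low Cinnamon (1), 1 with medium Astragalus (4), 9 with high Sagunja (14), 5 with high Samul (3), 1 with high Rehmannia (2), 0 between Rehmannia doses (1) and 0 for Sagunja minus Samul (1). The fit without a filter could not be run with the robust option; without that option, chosen after seeing the data, it gave 0 with medium and 0 with low Cinnamon (1 each), 5 with high Samul (3), 0 with medium Samul (1), 0, 1 and 0 with high, medium and low Rehmannia (2, 3 and 2), 0 between Rehmannia doses (1) and 0 for Sagunja minus Samul (1). With only the compared groups in the fit, 7 and 2 were called with medium and low Cinnamon (1 each), 5, 13 and 16 with high, medium and low Astragalus (3, 4 and 3), 0 with low Sagunja (6), 12, 15 and 16 with high, medium and low Samul (3, 1 and 3), 13, 8 and 8 with high, medium and low Rehmannia (2, 3 and 2), 10, 7 and 5 with high, medium and low Cnidium (0 each), 0 between Sagunja doses (6), 4 between Rehmannia doses (1), 2 between Cnidium doses (0) and 0 for Sagunja minus Samul (1). Calls over all genes moved with these counts, for example to 4186 with low Astragalus (643), 4960 with low Samul (459), 2456 with high Rehmannia (415), 2311 with high Cnidium (237), 0 with low Sagunja (3864) and 22 between Sagunja doses (3586). By the check over all genes given above, replicate numbers did not pair the samples. That check does not exclude a shared shift in single genes. COL1A1, for one, was highest in replicate 1 at each Cinnamon dose (4085, 4115 and 3054 CPM at the low, medium and high dose). A replicate block gave 5 with low Astragalus (3) and 3 with medium Samul (1), and changed no other count by over 1.5 times.

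Leaving out 1 library gave 9 to 17 with high Cinnamon, 0 to 9 with medium and 0 to 6 with low Cinnamon, 0 to 12, 0 to 12 and 1 to 14 with high, medium and low Astragalus, 8 to 20, 3 to 12 and 6 to 13 with high, medium and low Sagunja, 1 to 14, 0 to 11 and 0 to 11 with high, medium and low Samul, 1 to 7, 0 to 3 and 0 to 4 with high, medium and low Rehmannia, 0 to 5 with high and 0 to 1 with low Cnidium, 5 to 13 between Sagunja doses, 0 to 2 between Samul doses, 0 to 2 between Rehmannia doses and 0 to 5 for Sagunja minus Samul. The range was 13 to 19 between Cinnamon doses and 9 to 16 for Cinnamon minus Astragalus. It stayed at 0 between Astragalus doses, between Cnidium doses, with medium Cnidium and for Rehmannia minus Cnidium. COL4A1 between Sagunja doses (0.10) ranged from -0.14 without Sagunja low replicate 1, where it reversed, to 0.25 without Sagunja low replicate 2. The cause of these changes was not tested. COL1A1, COL1A2, COL5A1, COL7A1, COL8A1 and COL13A1 with high Cinnamon against vehicle kept their call under every alternative run. Library size alone also moved the share of higher calls over all genes, to 63.1% with high Sagunja (52.4%), 79.0% with high Samul (55.2%), 82.9% with high Rehmannia (57.8%) and 72.1% with high Astragalus (53.6%).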
